A study of Mus musculus with 6 samples.

Results

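The genes described here encode carriers of sugars, monocarboxylates and nucleotide sugars. They were taken by symbol: all protein-coding genes of the Slc2a, Slc5a, Slc16a, Slc37a, Slc35a and Slc35b families in GENCODE M21, without Slc16a1 and Slc16a6. This gave 48 genes of the 55536 in the count files, namely 12 of Slc2a, 11 of Slc5a, 12 of Slc16a, 4 of Slc37a, 5 of Slc35a and 4 of Slc35b. Their RNA was measured by RNA sequencing of mouse liver after a 14 h fast in 2 groups of 3 libraries, genotype WT and genotype CREBH-K.O (here CREBH-KO). CREBH is a liver transcription factor that is anchored in the endoplasmic reticulum, released by proteolysis and encoded by Creb3l3. All 6 libraries came from fasted mice, and the study's title names the mitochondrial unfolded protein response and energy balance as what CREBH was examined for. The sources used here do not give the strain, sex or age of the mice, the deleted exons, or whether cells other than hepatocytes lack CREBH.

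A hepatocyte moves sugar in both directions. Glucose made or released in fasting passes through facilitative carriers of the SLC2 (GLUT) family, while SLC5 proteins use the sodium gradient to pull sugars, vitamins or monocarboxylates into a cell. SLC16 proteins carry monocarboxylates such as lactate and pyruvate, and several members carry thyroid hormone, amino acids, creatine or carnitine instead. The SLC37 family includes a carrier of glucose-6-phosphate across the membrane of the endoplasmic reticulum. Many SLC35 proteins bring nucleotide sugars or the sulfate donor PAPS into the Golgi or endoplasmic reticulum for glycosylation and sulfation.

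The libraries held 28106243 to 39288819 reads counted in genes. Creb3l3 ranged from 467 to 496 CPM (read counts scaled to a common library size) in WT and from 45.0 to 57.4 CPM in CREBH-KO. Summed over 5 hepatocyte markers, levels were 56590 to 68730 CPM in WT and 64830 to 70380 CPM in CREBH-KO, and Apob alone of the 5 passed the test (lower). CREBH-KO 2 and CREBH-KO 3, whose labels report a lost file of first reads, stood apart from the other 4 libraries in markers of enterocytes, the absorptive cells of the gut. Summed without Anpep, which kept within 94.9% to 101% of its WT mean in all 6 libraries, 5 such markers came to 134, 161 and 181 CPM in WT, 85.2 CPM in CREBH-KO 1 and 23.9 and 24.6 CPM in CREBH-KO 2 and 3. With Anpep the 6 genes summed to 302 to 348 CPM in WT and 185 to 249 CPM in CREBH-KO. None of the 6 was at 0, and 1 of 6 (Fabp2, lower) passed the test. The 6 stellate cell markers summed to 141 to 159 CPM in WT and 186 to 216 CPM in CREBH-KO, with none at 0. Of these, Dcn and Rgs5 were higher. The 6 cholangiocyte markers summed to 35.9 to 79.1 CPM in WT and 41.9 to 69.6 CPM in CREBH-KO. Sox9 was higher, and the other 4 tested genes of this list did not pass. In Epcam and Krt19 of this list, CREBH-KO 2 and 3 lay below the other 4 libraries. Lrp2, the only tested gene of the kidney tubule list, was higher, with means of 0.465 CPM in WT and 1.88 CPM in CREBH-KO. In that list 4 genes were at 0 in all 6 libraries. Car3 of the adipocyte list was lower, and no tested endothelial, Kupffer cell, neutrophil, lymphocyte or erythroid marker passed. The part of these cell types in the transporter values was not tested. In bulk tissue, fewer cells of a type and less RNA per cell cannot be told apart.

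Of the 48 transporter genes none rose in CREBH-KO, and 8 fell, among them Slc2a2, Slc5a6, Slc16a7, Slc16a10, Slc16a11, Slc16a12 and Slc35b1. Slc16a1, which the symbol rule leaves out, rose from a mean of 57.1 to 123 CPM (edgeR adjusted p = 0.0109). Genes were called changed by edgeR's quasi-likelihood test at a Benjamini-Hochberg adjusted p under 0.05 over all tested genes. Of the 48 genes, 34 passed the filter on low counts and were tested, so 23.5% of these fell, while over all 15589 tested genes 10.4% changed, 6.46% downwards and 3.91% upwards. Higher genes made up 37.7% of all calls with the main scaling and 52.8% with library size alone. In the latter fit 1539 of 15589 tested genes changed, and 7 of the transporters fell and none rose. The median log2 fold change (CREBH-KO minus WT) was -0.41 over the 34 genes and 0.025 over all tested genes. It was below 0 for 29 of the 34 genes (85.3%) and for 46.9% of all genes, and for 27 of the 34 with library size alone. At least 2-fold changes were found for 3 of the 34 genes (Slc2a2, Slc5a6 and Slc16a11) and for 3.56% of all tested genes. When WT 2 was left out 4 of the 34 genes fell, and 658 of all 16189 genes tested in that fit changed. With CREBH-KO 1 alone against the WT libraries, the median log2 fold change was -0.34 over the 34 genes and -0.0105 over all tested genes. WT and CREBH-KO were fully separated for 16 of the 34 genes, 15 of them lower in CREBH-KO, against 30.6% of all tested genes.

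**Figure D1:**
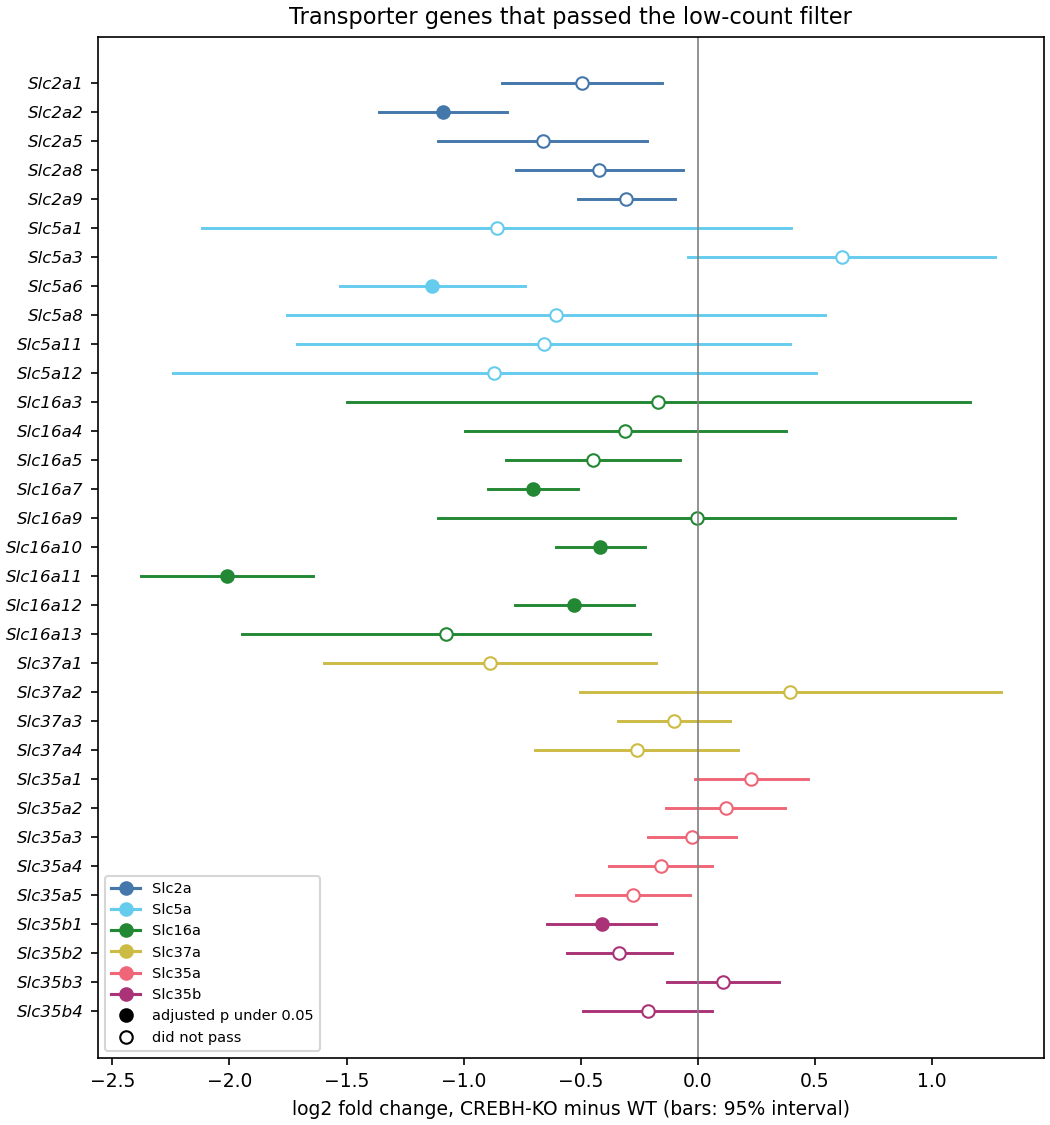
Log2 fold change (CREBH-KO minus WT, x axis) of 33 of the 34 tested transporter genes (rows, coloured by family), with 95% intervals of the model as bars. Filled points are the 7 genes plotted with an adjusted p under 0.05, all to the left of 0, and open points did not pass.

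The 8 genes came from 4 of the families. Of 10 tested Slc16a genes 5 fell, of 5 Slc2a genes 1, of 6 Slc5a genes 1 and of 4 Slc35b genes 1, while none of 4 Slc37a and none of 5 Slc35a genes passed. The median log2 fold change was -0.49 for Slc2a, -0.76 for Slc5a, -0.49 for Slc16a, -0.18 for Slc37a, -0.27 for Slc35b and -0.025 for Slc35a. Whether the families differ was not tested. Summed over its genes and divided by exon length (RPKM), Slc2a came to 58.4, 72.4 and 75.1 RPKM in WT 1, 2 and 3 and to 41.9, 36.7 and 37.5 RPKM in CREBH-KO 1, 2 and 3. Slc16a, without Slc16a1 and Slc16a6, summed to 101, 106 and 97.2 RPKM in WT and to 64.1, 71.8 and 70.8 RPKM in CREBH-KO. For both families the groups did not overlap, as for Slc35b with 35.6 ± 1.36 RPKM in WT and 28.3 ± 1.08 RPKM in CREBH-KO (SD, n = 3). Slc35a was level, with 24.1 ± 0.781 and 24.6 ± 0.496 RPKM. The groups overlapped for Slc37a, which ranged from 65.6 to 120 RPKM in WT, and for Slc5a, where CREBH-KO 1 reached 8.40 RPKM and CREBH-KO 2 and 3 had 3.04 and 3.69 RPKM.

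**Figure D2:**
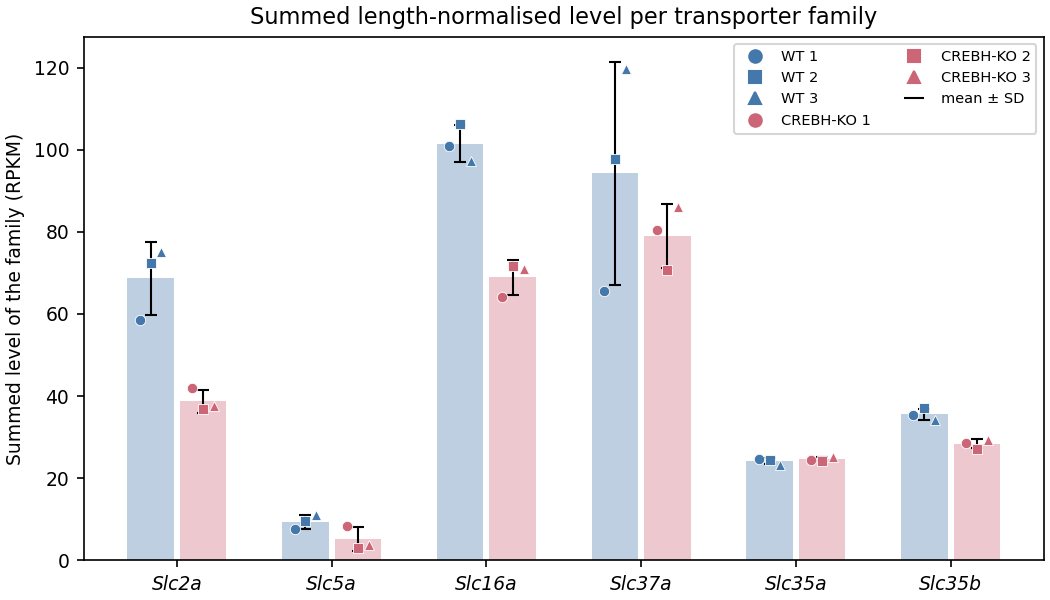
Summed level of each transporter family (y axis, RPKM) by genotype: bars are means, error bars SD over 3 libraries, and points the libraries. Slc16a is summed without Slc16a1 and Slc16a6. Slc2a, Slc16a and Slc35b show every CREBH-KO library below every WT library, whereas Slc35a is level and Slc37a and Slc5a overlap.

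Slc2a2 (ENSMUSG00000027690, chr3:28697903-28731359 of GRCm38) encodes GLUT2, the main glucose carrier of hepatocytes. It measured 223, 282 and 292 CPM in WT 1, 2 and 3 and 140.3, 113 and 121 CPM in CREBH-KO 1, 2 and 3. Each CREBH-KO library lay below each WT library, and the levels in CREBH-KO were 42.7% to 52.8% of the WT mean. The gene fell 2.13-fold (log2 fold change -1.09 ± 0.12 SE, 95% interval -1.36 to -0.81, edgeR adjusted p = 0.00107). Its call was lost only when CREBH-KO 1 alone was set against WT (-0.94, adjusted p = 0.0555), of 15 alternatives. In CREBH-KO 1 Slc2a2 was at 52.8% of the WT mean and the 5 enterocyte markers without Anpep summed to 53.7%, with Fabp2 at 34.3% and Vil1, Alpi, Lct and Sis at 104% to 131%. In CREBH-KO 2 and 3 Slc2a2 was at 42.7% and 45.5% and these markers at 15.1% and 15.5%. The part of the enterocyte markers in the fall of Slc2a2 was not tested. In WT Slc2a2 supplied 67.1% of the summed RPKM of its family, and in CREBH-KO 55.9%.

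The other 4 tested Slc2a genes were lower by a smaller amount and did not pass. Slc2a5, the fructose carrier GLUT5, measured 7.01, 10.5 and 7.67 CPM in WT and 6.18, 5.21 and 4.47 CPM in CREBH-KO, without overlap (log2 fold change -0.66 ± 0.20 SE, edgeR adjusted p = 0.0668). CREBH-KO 1, 2 and 3 were at 73.7%, 62.2% and 53.3% of its WT mean, and the part of the enterocyte markers in this value was not tested. Slc2a1, the glucose carrier GLUT1 found in many cell types, measured 15.5, 14.7 and 19.99 CPM in WT and 12.4, 10.1 and 13.2 CPM in CREBH-KO, again without overlap (-0.49 ± 0.15, edgeR adjusted p = 0.0736). Slc2a9, which carries urate, had 43.8, 53.2 and 50.3 CPM in WT and 39.1, 41.7 and 38.4 CPM in CREBH-KO, without overlap (-0.31 ± 0.09, edgeR adjusted p = 0.0691). These 3 genes sat just outside the threshold: Slc2a1 and Slc2a5 passed in DESeq2 (adjusted p of 0.0297 and 0.0196), and Slc2a5 and Slc2a9 without WT 1. Slc2a8, a GLUT of intracellular membranes, overlapped between groups at 13.3, 18.02 and 20.5 CPM and 12.8, 13.9 and 11.9 CPM (-0.42 ± 0.16, edgeR adjusted p = 0.133) and passed without WT 1 (-0.59, adjusted p = 0.0154). Per length, Slc2a2 at 46.1 ± 6.41 RPKM in WT stood above Slc2a9 at 9.66 ± 0.947 RPKM, Slc2a8 at 5.38 ± 1.14, Slc2a1 at 4.77 ± 0.816 and Slc2a5 at 2.46 ± 0.537 RPKM (SD, n = 3).

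The remaining 7 Slc2a genes did not pass the filter on low counts. Slc2a3 had a total of 19 reads in WT and of 37 in CREBH-KO, and Slc2a4, the insulin-responsive GLUT4 of muscle and fat, had 7 and 11. Slc2a6, Slc2a7, Slc2a10 and Slc2a13 had 16 to 27 counts over WT and 11 to 14 over CREBH-KO, and Slc2a12 had 1 and 4. No fold change is given at these depths. Of 6 marker genes of striated muscle, Ckm, Myh4 and Myh1 were at 0, and the 6 summed to 0.0313 to 0.233 CPM in WT and 0.0585 to 0.203 CPM in CREBH-KO. Of 6 adipocyte markers, Lep and Retn were at 0 and only Car3, which hepatocytes also express, was tested.

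Among the sodium-coupled carriers, Slc5a6 (ENSMUSG00000006641, chr5:31036036-31048924) encodes the carrier of biotin, pantothenate and lipoate. It measured 10.99, 15.5 and 15.9 CPM in WT and 5.88, 5.92 and 7.44 CPM in CREBH-KO. The groups did not overlap, and the 3 CREBH-KO libraries lay at 41.7% to 52.7% of the WT mean. Slc5a6 fell 2.196-fold (log2 fold change -1.13 ± 0.18 SE, 95% interval -1.53 to -0.74, edgeR adjusted p = 0.00475). The call was lost only with CREBH-KO 1 alone (-1.28, adjusted p = 0.0724). Of its exonic bases, 9.92% lie within the antisense gene Atraid. How reads there were counted depends on the strand setting, which is not known.

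Slc5a1, the sodium-glucose carrier SGLT1 of the gut lining, split the CREBH-KO libraries. It measured 16.4, 20.6 and 25.5 CPM in WT and 24.9, 4.496 and 4.896 CPM in CREBH-KO 1, 2 and 3. CREBH-KO 1 was thus within the WT range at 119% of the WT mean, while CREBH-KO 2 and 3 were at 21.6% and 23.5%. The gene did not pass (log2 fold change -0.86 ± 0.56 SE, edgeR adjusted p = 0.379). Without CREBH-KO 1 it passed at -2.15 (adjusted p = 7.01e-04), and with CREBH-KO 1 alone the sign turned (0.23, adjusted p = 0.730). Slc5a12, a sodium-coupled carrier of lactate and other monocarboxylates in gut and kidney, showed the same split at a low level, with 0.750, 1.001 and 1.04 CPM in WT and 1.08, 0.169 and 0.245 CPM in CREBH-KO. It did not pass with all libraries (-0.87 ± 0.61, edgeR adjusted p = 0.416) but did without CREBH-KO 1 (-2.14, adjusted p = 0.0332).

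Of the 6 enterocyte markers, 4 followed the libraries in the same way. The sucrase-isomaltase gene Sis measured 13.8, 14.2 and 19.2 CPM in WT and 16.4, 3.38 and 4.77 CPM in CREBH-KO. The lactase gene Lct measured 4.84, 6.26 and 7.57 CPM in WT and 6.76, 0.947 and 0.979 CPM in CREBH-KO. The villin gene Vil1 and the intestinal phosphatase gene Alpi were at 113% and 131% of the WT mean in CREBH-KO 1 and at 14.6% to 27.6% in the other CREBH-KO libraries. Fabp2, a fatty acid binding protein of the gut, was at 34.3% in CREBH-KO 1 and at 12.1% and 12.6% in the others, and Anpep was at 94.9% to 101% in all 6 libraries. The part of these markers in the values of Slc5a1 and Slc5a12 was not tested, and the lost read files of CREBH-KO 2 and 3 cannot be told apart from the split.

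**Figure D3:**
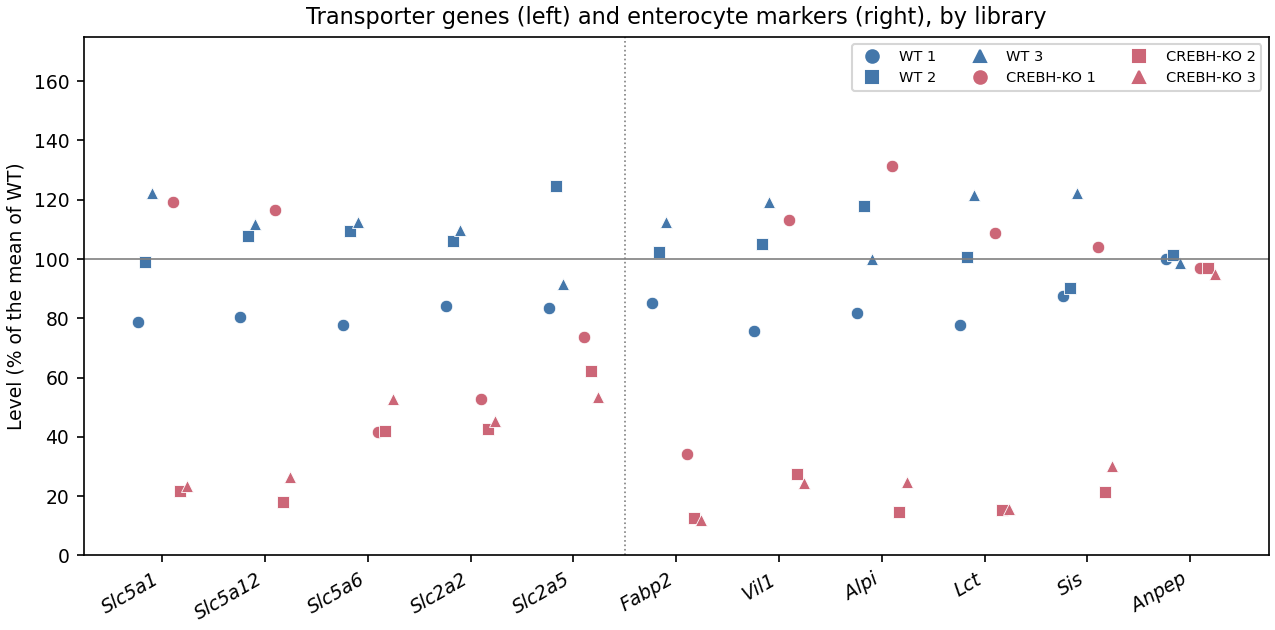
Level of 5 transporter genes (left of the dotted line) and of the 6 enterocyte markers (right) in each library, as a percentage of the WT mean (y axis, line at 100). Slc5a1, Slc5a12, Vil1, Alpi, Lct and Sis show CREBH-KO 1 at 104% to 131% and CREBH-KO 2 and 3 at 14.6% to 30.3%, whereas Fabp2, Slc5a6 and Slc2a2 are lower in all 3 CREBH-KO libraries.

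The other tested Slc5a genes were low and did not pass. Slc5a3, the sodium-coupled myo-inositol carrier, had 2.69, 1.94 and 1.95 CPM in WT and 2.69, 2.64 and 4.77 CPM in CREBH-KO (0.61 ± 0.29, edgeR adjusted p = 0.229), with CREBH-KO 3 above all others. Slc5a8, a sodium-coupled monocarboxylate carrier, stayed under 1 CPM in every library (-0.61 ± 0.51, edgeR adjusted p = 0.501), as did the inositol carrier Slc5a11 (-0.66 ± 0.47, edgeR adjusted p = 0.421). Of the 5 genes left out by the filter, the kidney glucose carrier Slc5a2 and the choline carrier Slc5a7 had 0 counts in all 6 libraries, which at 3 counts allows up to 0.0776 to 0.101 CPM per library. The iodide carrier Slc5a5 had 4 counts over WT and 2 over CREBH-KO, Slc5a10 had 2 and 1, and Slc5a9 17 and 15.

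In the monocarboxylate family all 10 tested genes taken by the symbol rule had a log2 fold change below 0. That of Slc16a9 was -0.0056 and lay above 0 with library size alone, upper-quartile factors and limma-voom. The genes that the rule leaves out lay above 0: Slc16a1 (1.11, edgeR adjusted p = 0.0109) and Slc16a6 (0.63, edgeR adjusted p = 0.162). Slc16a11 (ENSMUSG00000040938, chr11:70212752-70216417), a pyruvate carrier known from human type 2 diabetes genetics, had the largest fold change of the 34 tested genes. It measured 11.6, 9.700 and 10.7 CPM in WT and 2.93, 2.705 and 2.295 CPM in CREBH-KO, so that the highest CREBH-KO library lay far under the lowest WT library. It fell 4.03-fold (log2 fold change -2.01 ± 0.16 SE, 95% interval -2.38 to -1.64, edgeR adjusted p = 1.86e-04) and kept its call in all 15 alternatives (-2.09 to -1.89). Its neighbour Slc16a13 lies 371 bases away on the opposite strand, with the 3′ ends of the genes facing each other. Slc16a13, which encodes a related carrier, had 2.07, 0.907 and 1.14 CPM in WT and 0.585, 0.609 and 0.765 CPM in CREBH-KO, without overlap, and did not pass (-1.07 ± 0.39, edgeR adjusted p = 0.118).

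Slc16a7 (ENSMUSG00000020102, chr10:125219270-125389465) encodes MCT2, a high-affinity carrier of pyruvate and lactate. It was the most even of the 34 genes in WT, with 98.6, 99.1 and 97.4 CPM, and measured 63.2, 63.8 and 54.2 CPM in CREBH-KO. It fell 1.63-fold without overlap (log2 fold change -0.70 ± 0.08 SE, edgeR adjusted p = 0.00151), and the call was lost only with CREBH-KO 1 alone (-0.66, adjusted p = 0.0518). Slc16a3, the lactate exporter MCT4 of glycolytic cells, was at 0.672, 0.626 and 0.683 CPM in WT and 1.02, 0.609 and 0.122 CPM in CREBH-KO and did not pass (-0.17 ± 0.59, edgeR adjusted p = 0.891). Its sign turned without CREBH-KO 3 (0.31). Of the genes the symbol rule leaves out, Slc16a1 (MCT1) rose by 1.11 ± 0.20 (SE) on the log2 scale (edgeR adjusted p = 0.0109), and Slc16a6 did not pass (0.63 ± 0.25, adjusted p = 0.162).

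Slc16a10 (ENSMUSG00000019838, chr10:40033532-40142258), which carries aromatic amino acids and thyroid hormone, measured 148, 150.5 and 160.3 CPM in WT and 111, 108 and 125 CPM in CREBH-KO. The groups did not overlap, and it fell 1.33-fold (log2 fold change -0.42 ± 0.08 SE, edgeR adjusted p = 0.0155). The call was lost without WT 2 (adjusted p = 0.0606), without CREBH-KO 2 (adjusted p = 0.0613) and with CREBH-KO 1 alone (adjusted p = 0.140). Dio1, the deiodinase that activates thyroid hormone in liver, fell from 76.6 ± 10.3 to 40.3 ± 13.8 CPM (SD, n = 3; -0.93 ± 0.23 SE, edgeR adjusted p = 0.0349). The thyroid hormone receptor genes Thra (0.061) and Thrb (-0.10) did not pass (edgeR adjusted p of 0.748 and 0.586).

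Slc16a12 (ENSMUSG00000009378, chr19:34668403-34747289), a creatine carrier, measured 51.6, 66.2 and 63.2 CPM in WT and 44.96, 37.5 and 43.1 CPM in CREBH-KO. It fell 1.44-fold without overlap (log2 fold change -0.53 ± 0.11 SE, edgeR adjusted p = 0.0203). The call was lost without WT 2, WT 3, CREBH-KO 2 or CREBH-KO 3 (edgeR adjusted p of 0.0567 to 0.0855) and with CREBH-KO 1 alone. With 1 library left out, the log2 fold change stayed between -0.64 and -0.45. Gamt, the last enzyme of creatine synthesis, fell from 122 ± 18.04 to 49.98 ± 13.98 CPM (SD, n = 3; -1.29 ± 0.19 SE, edgeR adjusted p = 0.00350), and Gatm, its first enzyme, did not pass (0.095 ± 0.23, adjusted p = 0.839).

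The other Slc16a genes did not pass. Slc16a5, which encodes a related carrier, had 49.1, 54.2 and 42.6 CPM in WT and 31.8, 45.9 and 29.3 CPM in CREBH-KO (-0.45 ± 0.16, edgeR adjusted p = 0.124); CREBH-KO 2 lay within the WT range, and without it the gene passed (-0.67, adjusted p = 0.0212). Slc16a4 was at 1.84, 1.25 and 1.496 CPM in WT and 0.937, 1.56 and 1.22 CPM in CREBH-KO (-0.31 ± 0.30, edgeR adjusted p = 0.571). Slc16a9, a carnitine carrier, ran from 0.336 to 1.27 CPM in WT and from 0.642 to 0.966 CPM in CREBH-KO, and 23.5% of its exonic bases lie within antisense genes. Slc16a8, with 2 counts over WT and 1 over CREBH-KO, and Slc16a14, with 1 and 0, were not tested. Per length, Slc16a10 (20.8 ± 0.900 RPKM in WT) stood above Slc16a12 (14.5 ± 1.85), Slc16a5 (13.1 ± 1.57), Slc16a7 (8.31 ± 0.0716) and Slc16a11 (4.17 ± 0.364; SD, n = 3). Slc16a12 and Slc16a5 did not differ beyond their spread in WT.

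**Figure D4:**
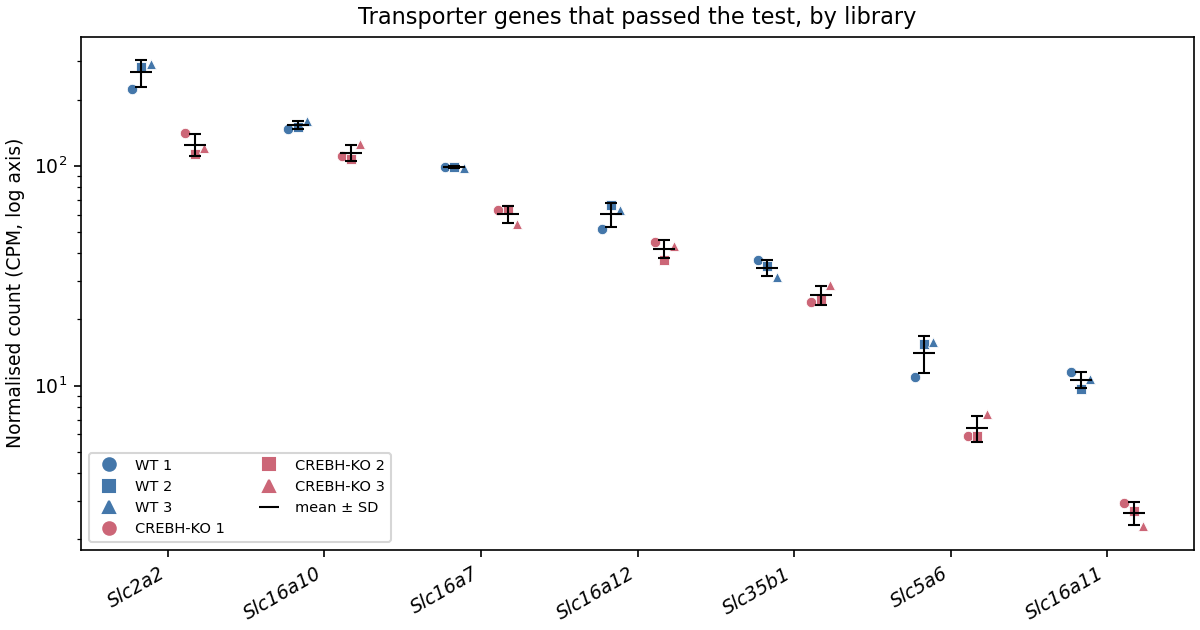
Normalised counts (CPM, log axis) of 7 of the 8 transporter genes that passed the test, by library (symbols) and genotype (colours), with mean and SD over 3 libraries. In all 7 genes plotted the 3 CREBH-KO libraries lie below the 3 WT libraries, with the widest gap for Slc16a11.

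RefSeq promoter windows (GRCm38.p6) were at hand for 38 of the 48 genes and for 6 of the 8 that fell. Slc16a7 was not among them. The 250 bases before the start or starts that the RefSeq table gives for each gene were searched on both strands for TGACGTCA, the full cAMP response element read by CREB-like factors, for its part TGACG, for TGACGTGG, an element of the unfolded protein response, for the E-box CACGTG and for the CCAAT box. The first and the third contain the second. Some of these starts lie inside the gene as GENCODE draws it: of the windows of genes that fell, those of Slc5a6 hold 250 and 158 exonic bases, that of Slc16a11 199 and that of Slc35b1 164. These windows are not wholly upstream of the gene. Neither TGACGTCA, present in 1.55% of all 32851 windows, nor TGACGTGG, present in 0.563%, was found in any of the 38 genes. The shorter TGACG, in 17.8% of all windows, was found in 6 of the 38 genes, of which Slc5a6 and Slc35b1 fell. An E-box, in 6.02% of all windows, was found in 4 genes, of which Slc16a12 fell, and CCAAT, in 33.8%, in 13 genes, of which Slc2a2, Slc5a6, Slc16a10 and Slc16a11 fell. These are matches of letters, not sites shown to be bound, and nothing follows from an absent match. The windows of 3 genes that fell and that hold at most 4 exonic bases are shown 5′ to 3′ along the gene, with the matches in capitals: CCAAT or its complement ATTGG in Slc2a2 and Slc16a10, and the E-box in Slc16a12. They lie at chr3:28697653-28697902 (plus strand), chr10:40142255-40142504 (minus strand) and chr19:34747329-34747578 (minus strand).
Slc2a2: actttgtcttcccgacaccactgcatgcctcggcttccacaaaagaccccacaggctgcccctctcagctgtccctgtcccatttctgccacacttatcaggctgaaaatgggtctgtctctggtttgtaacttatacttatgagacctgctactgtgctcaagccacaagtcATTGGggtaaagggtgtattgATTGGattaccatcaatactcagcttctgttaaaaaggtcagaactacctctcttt
Slc16a10: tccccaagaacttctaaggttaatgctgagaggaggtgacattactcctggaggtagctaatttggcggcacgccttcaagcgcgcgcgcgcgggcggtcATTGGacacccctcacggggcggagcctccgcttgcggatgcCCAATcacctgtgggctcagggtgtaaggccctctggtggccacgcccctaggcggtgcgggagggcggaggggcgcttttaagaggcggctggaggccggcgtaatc
Slc16a12: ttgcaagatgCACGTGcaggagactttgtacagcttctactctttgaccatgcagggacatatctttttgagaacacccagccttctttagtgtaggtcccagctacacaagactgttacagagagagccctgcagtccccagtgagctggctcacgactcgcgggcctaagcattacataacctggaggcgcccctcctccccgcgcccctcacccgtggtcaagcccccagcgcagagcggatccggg

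The Slc37a genes did not pass as single genes. Slc37a4 encodes the glucose-6-phosphate translocase that feeds glucose-6-phosphatase, the last step of glucose release. It measured 176, 266 and 329 CPM in WT and 218, 191 and 234 CPM in CREBH-KO, where all 3 CREBH-KO libraries lay inside the WT range (-0.26 ± 0.19 SE, 95% interval -0.70 to 0.17, edgeR adjusted p = 0.440). WT 1 was the lowest library, and without it Slc37a4 passed as lower (-0.48, adjusted p = 0.0323). G6pc, the catalytic subunit that works beside it, rose from 285 ± 90.6 to 475 ± 24.6 CPM (SD, n = 3; 0.74 ± 0.19 SE, edgeR adjusted p = 0.0366). Slc37a1, Slc37a2 and Slc37a3 encode other members of the family. Slc37a1 had 2.43, 2.096 and 3.54 CPM in WT and 1.84, 1.52 and 0.979 CPM in CREBH-KO, without overlap (-0.89 ± 0.31, edgeR adjusted p = 0.112). Slc37a2 (0.40 ± 0.40, edgeR adjusted p = 0.581) and Slc37a3 (-0.10 ± 0.11, edgeR adjusted p = 0.595) overlapped. Slc37a4 supplied 95.1% of the summed RPKM of its family in WT and 94.9% in CREBH-KO.

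Among the Slc35b genes, Slc35b1 (ENSMUSG00000020873, chr11:95384692-95391776), which encodes a carrier of the endoplasmic reticulum that exchanges ATP for ADP, measured 37.1, 34.9 and 31.2 CPM in WT and 24.1, 24.8 and 28.7 CPM in CREBH-KO. It fell 1.33-fold without overlap (log2 fold change -0.41 ± 0.10 SE, edgeR adjusted p = 0.0366). This was the least stable of the 8 calls: it was lost with library size alone (adjusted p = 0.0805), without any one of WT 1, WT 2 and CREBH-KO 1 and 2 (adjusted p of 0.0692 to 0.120) and with CREBH-KO 1 alone (adjusted p = 0.179). Slc35b2, a PAPS carrier of the Golgi, had 43.5, 52.7 and 50.4 CPM in WT and 42.2, 36.4 and 37.5 CPM in CREBH-KO, without overlap, just outside the threshold (-0.33 ± 0.10, edgeR adjusted p = 0.0650; 0.0399 in DESeq2 and 0.0235 without WT 1). Slc35b3, the other PAPS carrier (0.11 ± 0.11, edgeR adjusted p = 0.575), and Slc35b4, a carrier of UDP-xylose and UDP-N-acetylglucosamine (-0.21 ± 0.12, edgeR adjusted p = 0.316), did not pass.

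The Slc35a genes had the family median nearest to 0. Slc35a1, the CMP-sialic acid carrier, had 19.4, 16.8 and 15.8 CPM in WT and 19.6, 19.7 and 21.7 CPM in CREBH-KO, the single tested gene of the 34 with every CREBH-KO library above every WT library, and did not pass (0.23 ± 0.11 SE, edgeR adjusted p = 0.226). Slc35a2, the UDP-galactose carrier, had a log2 fold change of 0.12 ± 0.11 (95% interval -0.14 to 0.37, edgeR adjusted p = 0.560). Slc35a3, a UDP-N-acetylglucosamine carrier, was at -0.025 ± 0.08 (95% interval -0.21 to 0.16, edgeR adjusted p = 0.888), with 66.01, 62.7 and 57.1 CPM in WT and 58.1, 61.2 and 63.4 CPM in CREBH-KO. Slc35a4 (-0.16 ± 0.10, edgeR adjusted p = 0.354) and Slc35a5 (-0.28 ± 0.11, edgeR adjusted p = 0.145) were lower and did not pass, and Slc35a5 showed no overlap. The sign of Slc35a3 turned with library size alone and with upper-quartile factors.

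Genes that work with these carriers were followed in 6 lists, each to be read against the 10.4% of all genes that changed. Of 10 genes of lactate and pyruvate handling, 4 fell and 1 (Slc16a1) rose, with a median log2 fold change of -0.17. Ldha, the lactate dehydrogenase subunit of most tissues, fell by 0.57 and Ldhd, the D-lactate dehydrogenase, by 0.65 on the log2 scale (edgeR adjusted p of 0.0147 and 0.00288), with the pyruvate carrier Mpc1 (-0.71) and pyruvate carboxylase Pcx (-0.75). Bsg, the chaperone that brings MCT1 and MCT4 to the cell surface, did not pass (-0.10 ± 0.08, edgeR adjusted p = 0.444). Of 20 hexose-handling genes, 5 fell and 1 (G6pc) rose, with a median of -0.093. Sord, which converts sorbitol to fructose, fell from 1448 ± 62.9 to 745 ± 77.7 CPM (SD, n = 3; -0.96 ± 0.10 SE, edgeR adjusted p = 7.04e-04), and Akr1b3, the aldose reductase that makes sorbitol, fell by 0.66. The galactose genes Galk1 and Galm fell by 0.52 and 0.37, and Pck1 by 0.64. The fructose enzyme gene Khk did not pass (-0.089, edgeR adjusted p = 0.679).

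Of 11 genes that sense glucose or regulate its uptake, 2 rose and 1 (Srebf1) fell, with a median of -0.076. The risers were Txnip, an arrestin-like protein that lowers glucose uptake, and its relative Arrdc4. Txnip rose from 87.5 ± 12.04 to 138 ± 33.4 CPM and Arrdc4 from 14.8 ± 2.11 to 21.3 ± 0.860 CPM (SD, n = 3; 0.66 ± 0.17 and 0.53 ± 0.12 SE, edgeR adjusted p of 0.0420 and 0.0246). Mlxipl, the gene of the glucose-sensing factor ChREBP, and Hnf4a, a hepatocyte transcription factor, did not pass (-0.15 and -0.037, edgeR adjusted p of 0.482 and 0.869).

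Of 21 genes that make nucleotide sugars or PAPS, 5 fell and none rose, with a median of -0.093. Pgm3, an enzyme of UDP-N-acetylglucosamine synthesis, fell from 18.6 ± 2.59 to 5.31 ± 1.05 CPM (SD, n = 3; -1.81 ± 0.17 SE, edgeR adjusted p = 4.74e-04). The sialic acid genes Gne (-0.79), Nanp (-1.84) and Cmah (-0.56) and Ugp2 (-0.49), which makes UDP-glucose, fell as well. Nanp was low in both groups, with means of 0.493 CPM in WT and 0.136 CPM in CREBH-KO (edgeR adjusted p = 0.0409). Of 10 further tested genes of the SLC35 family, Slc35e1 fell (-0.36) and none rose, with a median of -0.074. Of 15 genes that handle the substrates of the non-sugar members, 3 fell (Dio1, Gamt and the carnitine synthesis gene Bbox1, -0.49) and 1 rose (the biotinidase gene Btd, 0.30), with a median of -0.049.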

How the data were processed

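The authors deposited read counts per gene for each library, made with HTSeq per the labels (sample titles). Aligner, build, strand setting and HTSeq version: not given in the sources used here. HTSeq's summary lines (27.4% to 31.2% of reads) were left out. All 55536 identifiers matched GENCODE M21, which gave symbols, positions and exon lengths. In R 4.3.3, edgeR 4.0.16 kept 15589 genes (filterByExpr, minimum count 10, minimum total 15; 99.9% of counts), scaled libraries by TMM (0.967 to 1.05) and ran its two-sided quasi-likelihood test without covariates. CPM and RPKM use effective library size. SE is the log2 fold change over the square root of F. The script was checked on simulated data. Alternatives used limma 3.58.1 and DESeq2 1.42.0. The labels call the samples independent but name no mice, so p-values measure the spread between these samples, which may be technical. By rule, library values are given for every called carrier and a set list of others, and accessory genes are named when called or among the 3 smallest p of their list. Library values of other carriers, and Bsg, Khk, Mlxipl, Hnf4a, Thra, Thrb, Gatm, Epcam and Krt19, were chosen after values were seen. A few genes that enter the counts are not reported here by name. The members and lists were chosen with earlier results of these data known.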

Additional observations from a re-analysis of the deposited data

How the results depend on the processing

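The number of changed genes, 1616 in all and 8 among the transporters (all lower), was 2456 and 16 with no filter on low counts, and 228 and 2 with CREBH-KO 1 alone against WT. With 1 library left out it ranged from 658 to 1806 over all genes and from 4 to 12 among the transporters, the lowest without WT 2 (658 and 4); it was 838 over all genes without CREBH-KO 2 and 778 without CREBH-KO 3. No transporter taken by the symbol rule rose under any of the 15 alternatives. All 8 transporters kept their calls with DESeq2 size factors, upper-quartile factors, the stricter filter, DESeq2, limma-voom and edgeR's robust fit, and 7 with library size alone. Where the cause of a lost or gained call is not given by fewer samples or genes, the cause was not tested. Signs turned only for genes that did not pass: Slc35a3 (0.050 with library size alone, 0.011 with upper-quartile factors, -0.083 to 0.012 with 1 library left out), Slc16a9 (0.067 and 0.030 with these scalings, 0.21 in limma-voom, -0.39 to 0.54 with 1 library left out) and Slc16a3 (-0.87 to 0.31 with 1 library left out). With CREBH-KO 1 alone they were Slc5a1 (0.23), Slc5a12 (0.20), Slc16a3 (0.61) and Slc16a9 (0.31). No paired analysis was possible because the labels number no replicates: the numbers 1 to 3 used here follow accession order, only name the libraries, and do not tie a WT library to a CREBH-KO library. Depth limits the 14 untested genes, which had at most 56 counts over all libraries.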
